A study of Mus musculus with 2 samples.

Results

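Solute carriers are the membrane proteins that move ions, sugars, amino acids, transmitters, nucleosides and metals across cell and organelle membranes without splitting ATP themselves. Their gene symbols start with Slc and a family number, or with Slco for the organic anion family. The set described here was chosen by symbol alone: every gene of the authors' deposited table with 1 symbol of that form and a value above 0 in both libraries, except Slc1a3, Slc17a6 and Slc17a7, which were left out by the rule. It held 47 genes of 2306 single-symbol genes with values in both libraries, in a table of 2381 rows. No gene with such a symbol was lost for a value of 0.

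RNA was sequenced from embryonic mouse cortex (embryonic day 14.5, B6/129 background), with 1 library a genotype. The Trrap-deleted library came from TrrapF/F NestinCre+ embryos, in which Nestin-Cre, active in neural progenitors and inherited by their progeny, removes Trrap, the scaffold of several histone acetyltransferase complexes. The control library is labelled wild type, but TrrapF/+ NestinCre+ is the genotype described for it, so both groups carry Cre and a floxed allele and the control is heterozygous. Cells of the cortex that do not come from Nestin-expressing progenitors, such as microglia and meningeal cells, are not targeted by design. The number of embryos in a sample is not stated. Trrap had no row in the table, so the deletion could not be checked in these values. Values are FPKM (fragments normalised to transcript length and to the total of the library), ratios are Trrap-deleted over control, and a gene is called listed when it passed the authors' own test at a q-value under 0.05. With 1 library a genotype, no value has a standard deviation, no test between genotypes could be run, and the spread between embryos is unknown. The depth of the libraries is unknown too, so no counting interval could be set.

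In the brain, solute carriers set the conditions in which progenitors grow and neurons fire. Dividing cells import amino acids and nucleosides for growth, while neurons that mature add exchangers that remove calcium, chloride and transmitter after electrical activity. Chloride is the classic case: young neurons keep it high, and the potassium-chloride cotransporter KCC2 lowers it as they mature.

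Trrap-deleted cortex had higher values of 30 (63.8%) of the 47 solute carrier genes and lower values of 17 (36.2%). Over all 2306 listed genes, 58.5% were higher and 41.5% lower, so the split over the solute carriers lay near that of the table. A difference of at least 2-fold upward was found in 16 members and downward in 7, against 25.7% and 13.2% of all listed genes. The median log2 ratio was 0.79 over the members and 0.55 over all listed genes. By substrate class the direction varied: 6 of 7 amino acid carriers were lower, whereas 8 of 10 carriers of bicarbonate, protons, chloride and sodium were higher, as was each of the 5 calcium exchangers among them. Of those 10 genes 6 were under 5 FPKM in the higher library, where 78.3% of all listed genes were higher, and all 6 were higher; of the 4 at 5 FPKM or more, 2 were higher and 2 lower. The 5 amino acid carriers at 5 FPKM or more among the members were all lower. Slc1a3, which shares a family number with Slc1a4 and was left out by the rule, was higher. It had 55.1 FPKM in Trrap-deleted and 30.7 FPKM in control cortex. Because the tissue is bulk, fewer cells of a type and less RNA per cell cannot be told apart.

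**Figure D1:**
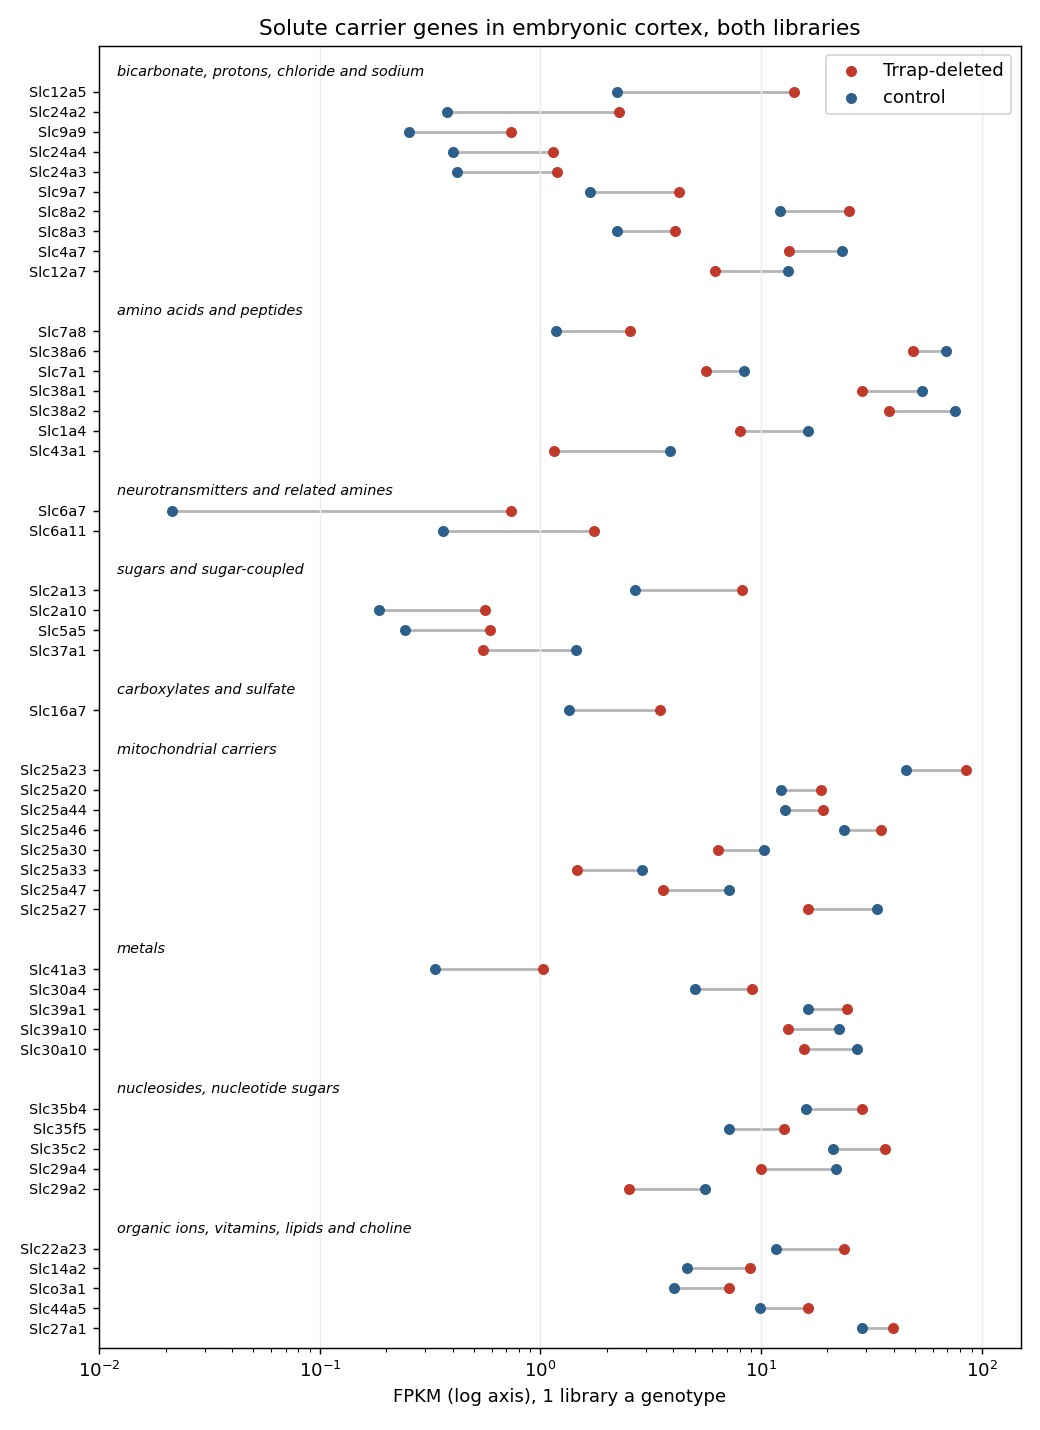
FPKM on a log axis in the Trrap-deleted library (red) and the control library (blue) for the 47 solute carrier genes, grouped by substrate class, with 1 library a genotype and no error bars. Red lies right of blue in 30 genes, and left of it in 6 of the 7 amino acid carriers.

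The table holds genes that passed a test, which shapes how their ratios look. Of 385 protein-coding symbols of this form annotated in GENCODE M21, 50 (13%) had a row, the 3 left out by the rule included, against 8.57% of all protein-coding symbols. The 8.57% counts 1879 symbols matched by name, so a gene listed under another name is missed. All 47 members matched by name, so the 2 shares are not strictly alike. A solute carrier without a row had either not passed or was not expressed, and nothing is said of it. Weak genes were listed with large differences, and mostly upward. Among genes with under 5 FPKM in the higher library, 13 of 16 members were higher, against 78.3% of all listed genes at that level. Among those with at least 5 FPKM, 17 of 31 members were higher, against 52.4% of all listed genes.

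**Figure D2:**
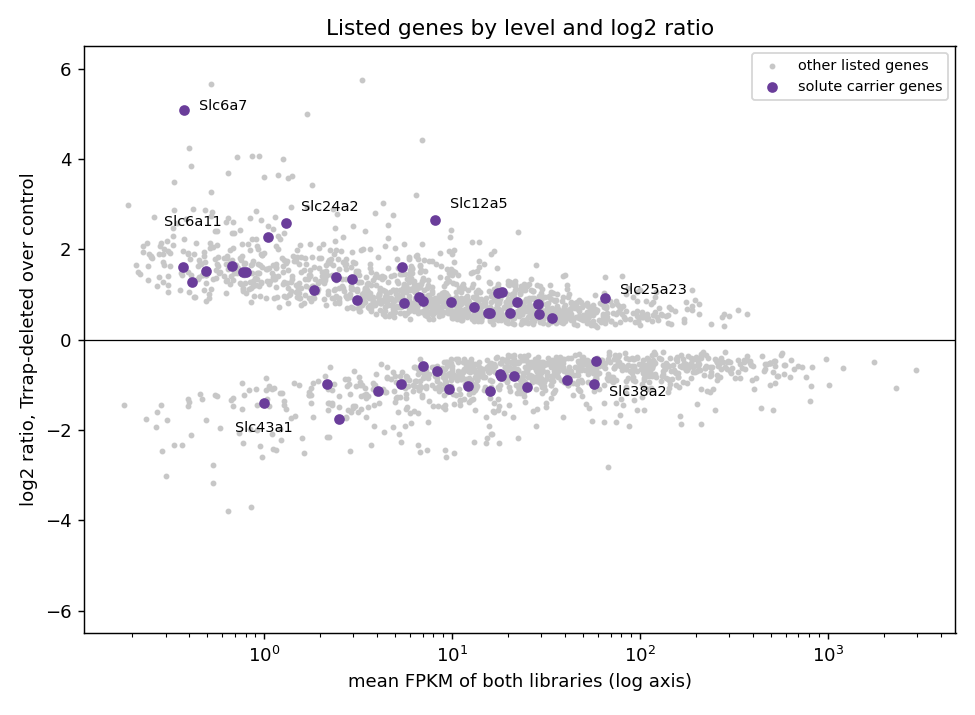
The log2 ratio (Trrap-deleted over control) against the mean FPKM of both libraries on a log axis, for 47 solute carrier genes (purple) and the other listed genes (grey); 6 other genes lie beyond the vertical range. The solute carriers lie within the 2 grey bands, with Slc6a7 at 5.09, Slc12a5 at 2.66 and Slc24a2 at 2.59 at the top and Slc43a1 at -1.75 at the bottom.

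The cation-chloride family gave the widest contrast within 1 family. Slc12a5, which encodes KCC2, the neuronal potassium-chloride cotransporter that extrudes chloride, had 14.1 FPKM in Trrap-deleted cortex, against 2.23 FPKM in control cortex, a 6.30-fold higher value. Its relative Slc12a7, which encodes KCC4, a potassium-chloride cotransporter of wider distribution, had 6.18 FPKM in Trrap-deleted cortex, against 13.2 FPKM in control cortex, 2.13-fold lower. Slc12a7 was thus the more abundant of the pair per length in the control, and Slc12a5 in the Trrap-deleted library. The locus given for Slc12a5 (chromosome 2, 164786302 to 164860415, mm9) is 74114 bases long, while the annotated gene has 38930. Slc12a5 together with its neighbour Ncoa5, which lies on the opposite strand, spans 74066 bases in GENCODE M21. The value of Slc12a5 is therefore uncertain, since the row may take in reads of Ncoa5, and a part of Ncoa5 in the difference was not tested. Slc12a7 (chromosome 13, 73870542 to 73954192, mm9) had a locus close to its annotated length. The other 7 annotated members of this family had no row.

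Both genes carry the same short motif just before an annotated start. The windows before a RefSeq start (build GRCm38.p6, plus strand for both genes) are printed here because they share the letters CACGTG, an E-box of the kind bound by Myc and Usf proteins, shown in capitals. Myc is a known partner of Trrap.
Slc12a5, chr2:164967738-164967987: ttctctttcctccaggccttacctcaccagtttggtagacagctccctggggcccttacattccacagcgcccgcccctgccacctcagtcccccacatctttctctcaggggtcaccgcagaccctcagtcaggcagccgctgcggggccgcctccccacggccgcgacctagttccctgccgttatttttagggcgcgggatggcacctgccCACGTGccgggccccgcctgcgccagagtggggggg
Slc12a7, chr13:73763447-73763696: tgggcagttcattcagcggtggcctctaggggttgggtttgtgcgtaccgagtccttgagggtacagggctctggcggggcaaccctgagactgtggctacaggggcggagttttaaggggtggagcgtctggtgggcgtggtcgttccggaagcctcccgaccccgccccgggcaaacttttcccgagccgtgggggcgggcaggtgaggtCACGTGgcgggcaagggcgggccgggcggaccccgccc
The E-box ended 31 bases before 1 of the 2 RefSeq starts of Slc12a5 and 33 bases before the downstream start of Slc12a7. The genes differed in direction. RefSeq windows of 300 bases were found for 39 of the 47 members. CACGTG, which reads the same on both strands, lay in 7 of these 39 genes (8 of 50 windows, 16%), against 7.15% of all 32851 windows. The site of Slc12a7 was counted in 2 overlapping windows. The 7.15% covers all promoters, and no share over the listed genes alone is given here. The 7 were Slc12a5, Slc24a4, Slc27a1 and Slc41a3, which were higher after Trrap deletion, and Slc12a7, Slc25a33 and Slc43a1, which were lower. A match is a description of letters and does not show that a factor binds there. A link of these sites to Trrap or Myc was not tested.

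Sodium-calcium exchangers were higher throughout the listed set. These proteins use the sodium gradient to move calcium out of the cell, in the Slc24 family together with potassium. Slc8a2, which encodes the brain exchanger NCX2, had 25.02 FPKM in Trrap-deleted cortex, against 12.1 FPKM in control cortex. Slc8a3, for NCX3, had 4.07 FPKM in Trrap-deleted and 2.23 FPKM in control cortex. Both families were thus represented, and Slc8a2 was the most abundant of the 5 exchangers per length in each library. Slc24a2, for the retinal and neuronal exchanger NCKX2, had 2.26 FPKM in Trrap-deleted cortex, against 0.376 FPKM in control cortex, 6.02-fold higher. Slc24a3 had 1.19 FPKM in Trrap-deleted and 0.420 FPKM in control cortex, and Slc24a4 had 1.14 FPKM in Trrap-deleted and 0.402 FPKM in control cortex. The log2 ratios of the 5 ran from 0.87 to 2.59. All 5 also lay above the median of all listed genes, but so did all 423 higher listed genes under 5 FPKM. Only Slc8a2 reached 5 FPKM, and the other 4 lay at the level where 78.3% of all listed genes were higher. They were 5 of 9 annotated genes of the Slc8 and Slc24 families by symbol.

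Proton and bicarbonate carriers differed in direction. The sodium-proton exchangers listed are those of organelles: Slc9a7, of the trans-Golgi network, had 4.24 FPKM in Trrap-deleted cortex, against 1.68 FPKM in control cortex. Slc9a9, of recycling endosomes, stayed below 1 FPKM in both libraries, at 0.733 in Trrap-deleted and 0.255 in control cortex. Slc4a7, a sodium-bicarbonate cotransporter that raises intracellular pH, was lower, at 13.4 FPKM in Trrap-deleted and 23.3 FPKM in control cortex. Slc4a7 was the only listed member of its family of 11 annotated symbols.

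Among the members, 6 of 7 amino acid carriers were lower, against 41.5% of all listed genes. Slc1a3, left out by the rule, is not in this count and was higher. The system A carriers, which bring small neutral amino acids into cells with sodium, were among the most abundant members. Slc38a2, which encodes SNAT2 and is induced when amino acids run short, had 38.2 FPKM in Trrap-deleted cortex, against 75.9 FPKM in control cortex (1.99-fold lower). Slc38a1, for the glutamine carrier SNAT1, had 28.7 FPKM in Trrap-deleted and 53.7 FPKM in control cortex. Slc38a6, a family member of less defined substrate, had 49.1 FPKM in Trrap-deleted and 68.6 FPKM in control cortex. These 3 genes of the Slc38 family shared a direction, with the smallest difference in Slc38a6 (log2 ratio -0.48).

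The other amino acid carriers were weaker. Slc1a4, for the neutral amino acid exchanger ASCT1 that carries serine in the brain, had 8.06 FPKM in Trrap-deleted cortex, against 16.4 FPKM in control cortex (2.03-fold lower). Slc7a1, for the arginine and lysine carrier CAT1, had 5.63 FPKM in Trrap-deleted and 8.40 FPKM in control cortex. Slc43a1, for the system L carrier LAT3, which takes large neutral amino acids, had 1.147 FPKM in Trrap-deleted and 3.87 FPKM in control cortex. Its log2 ratio of -1.75 was the lowest of all 47 members. Slc7a8, for the light chain LAT2, which also takes large neutral amino acids, was the 1 member of the class that was higher, at 2.54 FPKM in Trrap-deleted and 1.18 FPKM in control cortex. The system L carriers LAT2 and LAT3 thus had opposite directions. The loci of this class lay close to the annotated gene lengths.

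Part of this class is known to answer to Atf4, the transcription factor of the amino acid response. Of 10 solute carriers in a list of known Atf4 targets, 3 were listed (Slc38a2, Slc1a4 and Slc7a1). All 3 were lower, against 41.5% of all listed genes and 47.6% of those at 5 FPKM or more. They are among the lower amino acid carriers counted above. Atf4 itself had 42.7 FPKM in Trrap-deleted cortex, against 74.7 FPKM in control cortex. The other 7 of that list, which include the cystine carrier gene Slc7a11 and the heavy chain gene Slc3a2, had no row. A link of Atf4 to the lower values was not tested.

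The start regions of 2 of the lower amino acid carriers are printed because each holds a motif of interest. In Slc1a4 (minus strand, GRCm38.p6) the capitals mark the reverse complement of TGATGNAA, the core of the composite element bound by C/EBP and Atf proteins. In Slc43a1 (plus strand, GRCm38.p6) they mark the E-box.
Slc1a4, chr11:20332699-20332728: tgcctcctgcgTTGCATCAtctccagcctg
Slc43a1, chr2:84840073-84840322: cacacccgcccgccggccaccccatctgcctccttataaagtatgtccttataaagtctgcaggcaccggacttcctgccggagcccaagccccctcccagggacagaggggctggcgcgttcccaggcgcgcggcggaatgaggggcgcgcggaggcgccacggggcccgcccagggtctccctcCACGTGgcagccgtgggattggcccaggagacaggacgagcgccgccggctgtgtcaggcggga
In Slc1a4 the motif crossed the annotated start. TGATGNAA on either strand lay in 2 of the 39 genes with a window, Slc1a4 and Slc9a9 (4% of the member windows), against 3.97% of all windows. The windows of 300 bases of Slc38a2 and Slc7a1 did not hold these letters, and the rest of these genes was not searched. Both motifs were chosen after the windows had been searched.

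**Figure D3:**
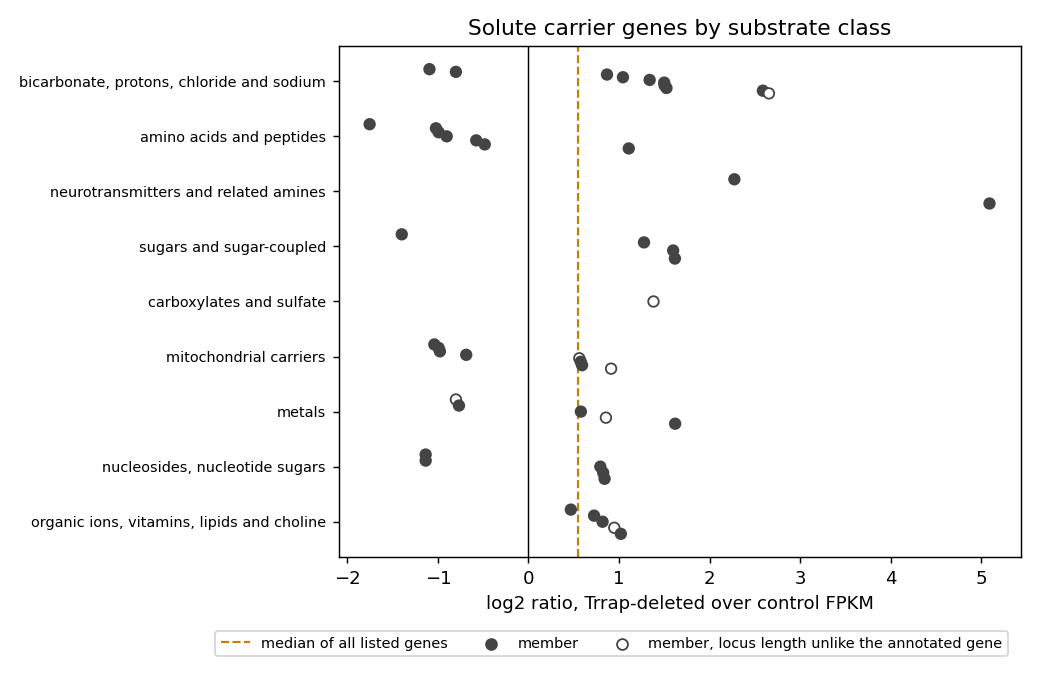
The log2 ratio (Trrap-deleted over control FPKM) of each solute carrier gene by substrate class, with the median of all listed genes (0.55) as a dashed line; open points are the 7 genes whose locus in the table is unlike the annotated gene in length. Amino acid carriers lie left of 0 except Slc7a8, and the nucleoside and nucleotide sugar carriers form 2 separate clusters.

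The 2 transmitter carriers among the members were both higher and both weak, under 5 FPKM, where 78.3% of all listed genes were higher. The transmitter carrier genes Slc17a7 and Slc17a6 were also listed but left out by the rule. Slc17a7 was higher, at 46.5 FPKM in Trrap-deleted and 20.2 FPKM in control cortex. Slc17a6 was lower, at 20.6 FPKM in Trrap-deleted and 28.1 FPKM in control cortex. Slc6a11, which encodes the GABA transporter GAT3, known from glia, had 1.75 FPKM in Trrap-deleted cortex, against 0.362 FPKM in control cortex, 4.84-fold higher. Slc6a7, for the brain proline transporter of glutamatergic terminals, was below 1 FPKM in both libraries, at 0.733 in Trrap-deleted and 0.0215 in control cortex. Its log2 ratio of 5.09 was the highest of the 47 and rests on a control value close to 0. The row of Camk2a, a kinase gene of the postsynaptic density, lies 7222 bases away, and had 16.2 FPKM in Trrap-deleted and 3.34 FPKM in control cortex. Whether reads of Camk2a reached the row of Slc6a7 was not tested.

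Among sugar carriers and relatives, 3 of 4 were higher, against 58.5% of all listed genes. Of these 4 genes 3 were under 5 FPKM, where 78.3% of all listed genes were higher. Slc2a13, for the proton-coupled inositol carrier HMIT of neurons, had 8.21 FPKM in Trrap-deleted cortex, against 2.67 FPKM in control cortex (3.07-fold higher). Slc37a1, a glucose 6-phosphate exchanger of the endoplasmic reticulum, was lower, at 0.549 FPKM in Trrap-deleted and 1.45 FPKM in control cortex. The hexose carrier gene Slc2a10 and the iodide carrier gene Slc5a5, which shares a family number with sodium-glucose carriers, were below 1 FPKM in both libraries. Slc2a10 had 0.561 FPKM in Trrap-deleted and 0.185 FPKM in control cortex. Slc5a5 had 0.588 FPKM in Trrap-deleted and 0.243 FPKM in control cortex. Slc16a7, for the monocarboxylate carrier MCT2 that brings lactate and pyruvate into neurons, was the only listed gene of its class. It had 3.49 FPKM in Trrap-deleted cortex, against 1.34 FPKM in control cortex, at a locus shorter than the annotated gene, which makes this value uncertain.

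Mitochondrial carriers of the Slc25 family split evenly, with 4 higher and 4 lower of 47 annotated symbols. Slc25a23, for a calcium-regulated ATP-magnesium and phosphate carrier, was the most abundant member in the Trrap-deleted library, at 85.3 FPKM in Trrap-deleted and 45.3 FPKM in control cortex. Its locus in the table is longer than the gene, which itself overlaps the annotated gene Crb3 on the opposite strand, so this value is uncertain. Slc25a46, for an outer-membrane protein of mitochondrial dynamics, had 34.9 FPKM in Trrap-deleted and 23.7 FPKM in control cortex, at a locus shorter than the annotated gene. Slc25a20, for the carnitine-acylcarnitine carrier of fatty acid oxidation, had 18.7 FPKM in Trrap-deleted and 12.4 FPKM in control cortex. Slc25a44, for a carrier of branched-chain amino acids, had 19.1 FPKM in Trrap-deleted and 12.8 FPKM in control cortex. Apart from Slc25a23, the higher genes differed by at most 1.51-fold, close to the median of all listed genes.

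The lower mitochondrial carriers were Slc25a27, Slc25a33, Slc25a47 and Slc25a30. Slc25a27, for the brain uncoupling protein homologue UCP4, had 16.4 FPKM in Trrap-deleted cortex, against 33.7 FPKM in control cortex (2.06-fold lower). Slc25a33, for a pyrimidine nucleotide carrier linked to growth, had 1.47 FPKM in Trrap-deleted and 2.89 FPKM in control cortex. Slc25a47, a gene best known from liver, had 3.61 FPKM in Trrap-deleted and 7.17 FPKM in control cortex. Slc25a30, another uncoupling protein homologue, had 6.39 FPKM in Trrap-deleted and 10.3 FPKM in control cortex. Their log2 ratios ran from -1.04 to -0.69.

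Metal carriers also went both ways, and the zinc families did so among importers and exporters alike. Slc39a1, for the zinc importer ZIP1, had 24.4 FPKM in Trrap-deleted cortex, against 16.3 FPKM in control cortex. Slc39a10, for the importer ZIP10, had 13.3 FPKM in Trrap-deleted and 22.6 FPKM in control cortex. Among the exporters, Slc30a4 had 9.11 FPKM in Trrap-deleted and 5.03 FPKM in control cortex. Slc30a10, a family member known as the manganese exporter, had 15.6 FPKM in Trrap-deleted and 27.2 FPKM in control cortex. Each family thus held 1 gene in either direction. The loci of both exporters are longer than the genes and equal in length, within 5 bases, the span of the gene with a noncoding neighbour on the opposite strand, so these 2 values are uncertain. Slc41a3, of a magnesium carrier family, had 1.02 FPKM in Trrap-deleted and 0.333 FPKM in control cortex. It lies 4522 bases from Aldh1l1, a folate enzyme gene with 11.7 FPKM in Trrap-deleted and 1.27 FPKM in control cortex, and the part of that neighbour in its value was not tested.

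The 2 listed genes of the nucleoside carrier family were lower, and the 3 listed genes of the nucleotide sugar carrier family were higher. Slc29a4, for the plasma membrane monoamine and nucleoside transporter PMAT, had 9.99 FPKM in Trrap-deleted cortex, against 21.9 FPKM in control cortex. Slc29a2, for the equilibrative nucleoside transporter ENT2, had 2.53 FPKM in Trrap-deleted and 5.56 FPKM in control cortex. Both were 2.20-fold lower, and they were 2 of 4 annotated symbols of the family. The Slc35 family supplies the Golgi and endoplasmic reticulum with the nucleotide sugars for glycosylation, and 3 of its 27 annotated symbols were listed. Slc35b4, for a carrier of UDP-xylose and UDP-N-acetylglucosamine, had 28.7 FPKM in Trrap-deleted and 16.01 FPKM in control cortex. Slc35c2, a Golgi protein that acts on Notch fucosylation, had 36.6 FPKM in Trrap-deleted and 21.1 FPKM in control cortex. Slc35f5, an orphan member, had 12.7 FPKM in Trrap-deleted and 7.16 FPKM in control cortex. The log2 ratios of these 3 lay close together, between 0.79 and 0.84.

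All 5 listed carriers of organic ions, lipids, urea and choline were higher, 4 of them also relative to the median of all listed genes. All 5 reached 5 FPKM in the higher library, where 52.4% of all listed genes were higher. Slc22a23, an orphan of the organic ion family expressed in brain, had 23.7 FPKM in Trrap-deleted cortex, against 11.7 FPKM in control cortex (2.03-fold higher). Slc27a1, for the fatty acid transport protein FATP1, had 39.8 FPKM in Trrap-deleted and 28.7 FPKM in control cortex. Its log2 ratio of 0.47 was the smallest in size among the members and became -0.084 when the median of all listed genes was set to 0. Slc44a5, of the choline transporter-like family, had 16.4 FPKM in Trrap-deleted and 9.91 FPKM in control cortex. Slco3a1, for an organic anion transporter that takes prostaglandins and thyroxine, had 7.14 FPKM in Trrap-deleted and 4.05 FPKM in control cortex. Slc14a2, a urea transporter gene best known from kidney, had 8.87 FPKM in Trrap-deleted and 4.59 FPKM in control cortex. The locus of Slc14a2 in the table covers only a small part of the annotated gene, which makes the level uncertain.

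Transporters and partners outside the Slc symbols were read from lists of their own. Of 12 subunits and regulators of the pump that makes the sodium gradient, 3 were listed and 2 were higher. Atp1b2, a beta subunit, had 31.98 FPKM in Trrap-deleted and 14.8 FPKM in control cortex. Fxyd2, a regulator, had the largest increase, at 2.02 FPKM in Trrap-deleted and 0.428 FPKM in control cortex. Fxyd6, another regulator, was lower, at 39.4 FPKM in Trrap-deleted and 66.5 FPKM in control cortex. Of 35 ABC transporter genes, whose products split ATP, 8 were listed, against 8.57% of all protein-coding symbols. That share counts matches by name and misses genes listed under other names. Of the 8 genes 7 were higher, against 58.5% of all listed genes. The largest increase was in Abca9, at 0.581 FPKM in Trrap-deleted and 0.207 FPKM in control cortex. Abce1, which recycles ribosomes and transports nothing, was the lower one, at 33.02 FPKM in Trrap-deleted and 44.2 FPKM in control cortex.

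Solute carriers that keep other symbols were listed in 6 of 46 cases, 4 higher and 2 lower (3 and 3 relative to the median of all listed genes). The endosomal Unc93b1, known from immune cells, showed the largest increase, at 1.74 FPKM in Trrap-deleted and 0.582 FPKM in control cortex. The synaptic vesicle gene Sv2b had 7.56 FPKM in Trrap-deleted and 3.44 FPKM in control cortex. Rhcg, an ammonium transporter, had 1.89 FPKM in Trrap-deleted and 5.27 FPKM in control cortex. Of 20 chaperones and partners, 2 were higher and 2 lower. Txnip, which limits glucose uptake by the Slc2 carriers, showed the largest increase, at 66.7 FPKM in Trrap-deleted and 37.8 FPKM in control cortex. Bsg, basigin, the chaperone of most monocarboxylate carriers, had 130.2 FPKM in Trrap-deleted and 88.6 FPKM in control cortex. Emb, embigin, the chaperone that MCT2 prefers, had 1.35 FPKM in Trrap-deleted and 2.56 FPKM in control cortex, the opposite direction to Slc16a7.

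**Figure D4:**
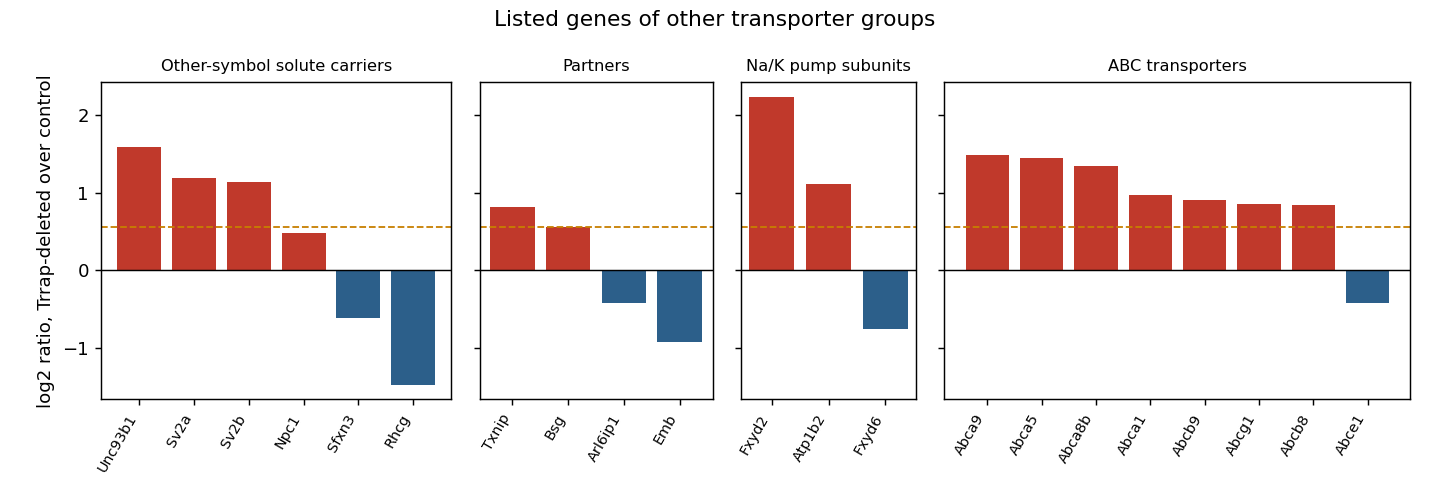
The log2 ratio (Trrap-deleted over control) of the listed genes of 4 other transporter groups, red for higher and blue for lower, with the median of all listed genes as a dashed line. Of the ABC genes 7 of 8 and of the sodium pump genes 2 of 3 lie above 0.

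Markers of other cell types moved in the same libraries. Over all listed genes 58.5% were higher and 41.5% lower, and 8.57% of all protein-coding symbols had a row matched by name. Among microglial markers 10 of 18 were listed and all 10 were higher, with a summed level of 32.4 FPKM in Trrap-deleted and 12.6 FPKM in control cortex. Of these 10 genes 8 were under 5 FPKM, where 78.3% of all listed genes were higher. Of 16 meningeal and mesenchymal markers 7 were listed and 6 were higher, with a sum of 28.5 FPKM in Trrap-deleted and 22.7 FPKM in control cortex and a median log2 ratio of 2.89. Of these 7 genes 5 were under 5 FPKM, and all 5 were higher. The lower one was Fn1, at 12.2 FPKM in Trrap-deleted and 19.9 FPKM in control cortex, and the other 6 summed to 16.3 FPKM in Trrap-deleted and 2.84 FPKM in control cortex. Endothelial and pericyte genes were listed in 2 of 16 cases, both higher and both under 5 FPKM (sum 4.24 FPKM in Trrap-deleted and 2.07 FPKM in control cortex). The defining endothelial genes Pecam1 and Cdh5 had no row. Choroid plexus had 1 of 10 listed, Ttr, at 3.31 FPKM in Trrap-deleted and 0.104 FPKM in control cortex. Erythroid markers were listed in 2 of 10 cases, 1 in each direction, with a sum of 166.4 FPKM in Trrap-deleted and 121.1 FPKM in control cortex. Astrocyte and oligodendrocyte markers had 6 of 15 listed, 4 higher and 2 lower, summing to 68.4 FPKM in Trrap-deleted and 44.5 FPKM in control cortex. Markers of the ventral telencephalon had 4 of 12 listed, 1 higher and 3 lower, summing to 15.8 FPKM in Trrap-deleted and 18.9 FPKM in control cortex. The 4 listed of 19 cortical markers were lower, and Neurod6, a marker of cortical projection neurons, had 259.9 FPKM in Trrap-deleted and 312.1 FPKM in control cortex. The Y-linked gene Eif2s3y had 32.8 FPKM in Trrap-deleted and 0.111 FPKM in control cortex, so the sex of the embryos and the genotype cannot be told apart. Xist, the RNA of the inactive X chromosome, had 142.0 FPKM in Trrap-deleted and 313.4 FPKM in control cortex, and was thus present in both libraries. Slc9a7 was the 1 member on the X chromosome, and none lay on the Y chromosome. The part of these cell types in the solute carrier differences was not tested.

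Solute carriers known from such cells were read as a further list each. None of 6 carriers known from meningeal fibroblasts, such as Slc6a13 and Slc22a6, and none of 5 known from erythroid cells, such as Slc4a1 and Slc25a37, was listed. Over all annotated Slc and Slco symbols 13% had a row, so lists this short would hold few listed genes at that share. Of 10 known from brain endothelium only Slc7a1 was listed, and it was lower. Of 18 known from neurons and synapses 6 were listed, Slc17a6 and Slc17a7 included, 4 higher and 2 lower. The higher ones among the members were Slc12a5, Slc24a2 and Slc8a2, and the lower one was Slc38a1.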

How the data were processed

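The 2 libraries were made from total RNA with a TruSeq kit, per the labels' protocols. TopHat2 and build mm9 are named in the submitters' processing notes; no source used here names the software for counting or testing. The FPKM values were deposited by the authors; the unit was read from the table's layout, which does not write it. The q-value of each row is from the authors' deposited test and was not recomputed; the member q-values reach 0.0394. The table holds rows under a q-value of 0.05 only. No source used here says whether counting used strand; 13 of 47 members overlap an annotated gene on the opposite strand in GENCODE M21.

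The log2 ratio (Trrap-deleted over control) was computed without a pseudocount. A symbol with several rows kept the row of highest mean FPKM, and 59 rows with several symbols were left out. Genes were grouped by Slc number into 10 substrate classes, 9 of which held a member; the phosphate class held none. Every member is named, and fold changes are not given in words for those under 1 FPKM in both libraries. 1 gene of the sodium pump list is not reported here. From the 4 other transporter groups the largest increase and decrease are named, with any gene set beside a member; marker lists are given mainly by counts and sums. A locus over 1.25 or under 0.8 times the annotated length was called uncertain (7 members). Table loci are on mm9, with starts counted from 1; GENCODE M21 and RefSeq windows are on GRCm38. The members, lists and alternatives were chosen with earlier results of these data known. Summaries were tested on simulated data. Python 3.11.15, pandas 2.3.3, numpy 2.4.6 and matplotlib 3.10.9 were used.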

Additional observations from a re-analysis of the deposited data

How the results depend on the processing

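No paired analysis was possible because each genotype had 1 library. The depth is unknown, so no limit of detection could be set. Setting the median of all listed genes to 0 lowered every log2 ratio by 0.55. Scaling by summed FPKM (log2 ratio of the sums -0.35) raised every log2 ratio. The sums ran over the listed rows only, not over the whole libraries. The count of higher members was 30 and of lower members 17. At a q-value of at most 0.01, 11 were lower; at 5 FPKM or more, 17 were higher; at 2-fold or more, 16 were higher and 7 lower. The median log2 ratio of 0.79 became 0.59 at 1 FPKM or more, 0.56 at 5 FPKM or more, 0.24 after the median was set to 0, 1.14 by summed FPKM, 0.55 with a pseudocount of 1, and 0.66 without the 7 members of uncertain locus, a setting chosen after seeing the data. The causes were not tested.

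By class, at 5 FPKM or more 0 amino acid, 0 transmitter, 1 sugar, 0 carboxylate and 2 bicarbonate, proton, chloride and sodium carriers were higher, and 0 sugar carriers were lower, while the 2 lower of the bicarbonate, proton, chloride and sodium class were kept, so that its split of 8 to 2 became even. At 1 FPKM or more, 1 transmitter and 1 sugar carrier were higher. At a q-value of at most 0.01, 5 of the bicarbonate, proton, chloride and sodium class, 2 mitochondrial and 3 organic ion, lipid, urea and choline carriers were higher, while 1 mitochondrial and 0 sugar carriers were lower. With the median set to 0, 1 of the organic ion class was lower: Slc27a1, whose log2 ratio of 0.47 reversed to -0.084, the only member to change direction under the 3 settings tried on single genes. By summed FPKM, 1 of the 4 cortical markers was higher.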

Other observations

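Other members have a listed gene close by in the table. Slc25a27 lies 174 bases from Cyp39a1, which encodes an oxysterol hydroxylase and had 5.95 FPKM in Trrap-deleted and 10.7 FPKM in control cortex, the same direction as Slc25a27. Slc25a23 lies 138 bases from Dennd1c, which had 0.691 FPKM in Trrap-deleted and 1.88 FPKM in control cortex, the opposite direction. Slc30a10, which was lower, lies 4844 bases from 9630028B13Rik, which had 37.7 FPKM in Trrap-deleted and 7.19 FPKM in control cortex. Slc8a3 lies 11501 bases from Smoc1, a gene for a secreted calcium-binding protein with 10.2 FPKM in Trrap-deleted and 3.49 FPKM in control cortex, both higher.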
